A study of Drosophila melanogaster with 96 samples.

Results

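Whole bodies of single Drosophila melanogaster flies were compared for one question, whether the change in transcript levels between 2 h and 8 h of feeding was the same in females and males. The measure was an interaction, the 8 h minus 2 h difference in females minus the 8 h minus 2 h difference in males, on the log2 scale. A positive interaction means a larger rise, or a smaller fall, in females than in males. The members were 35 of the 96 libraries of the series, chosen by sex, time and food, with 1 library left out for a male transcript as described below. They were 8 females at 8 h, 9 females at 2 h, 9 males at 8 h and 9 males at 2 h.

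All flies were unmated adults of the white-eyed laboratory strain w1118, aged for 3 days. Each was kept alone in a well, given a chemically defined liquid food for 24 h and then only buffered saline for 6 h. The food was then returned with a red dye (sulforhodamine B) and 0.1, 0.2 or 0.4% dimethyl sulfoxide (DMSO, a solvent in which test compounds are delivered). Each group held 3 flies from each DMSO level, apart from the females at 8 h on 0.4%, of which 2 were used. One library labelled as a female of that group was left out because it carried a male transcript. Its CPM (counts scaled to the library total) was 134 for lncRNA:roX1, an RNA of the male dosage compensation complex, and none of the other 47 female libraries of the series exceeded 3.21 CPM. One plate was used per time point, with females in one part of it and males in the other. Time and plate therefore cannot be told apart within a sex, but the same plates held both sexes. All females were sequenced in 1 run and these males in another, so that a shift between runs that is constant over time cancels in the interaction.

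An adult female carries a pair of ovaries in which germ cells divide, nurse cells copy their genomes and build ribosomes, and follicle cells lay down yolk and egg shell. In a whole fly these transcripts are counted together with those of flight muscle, fat body, gut, nervous system and the cells under the cuticle. In males the testis and the accessory gland, which secretes the proteins of seminal fluid, take a similar place. In whole-body RNA, fewer cells of a type and less RNA per cell cannot be told apart.

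The 35 libraries held 2212905 to 9215796 counts on genes, with a median of 4928924. Ribosomal RNA genes took 4.80% to 49.0% of these counts. The labelled sex was checked with Yp1, a yolk protein gene, which had 621 to 11790 CPM before normalisation in the females and 0 to 0.834 CPM in the males. Of the 12878 genes with enough counts, 9524 averaged at least 1 CPM in each sex and were tested for the interaction. Flies of one group were separate animals, so p-values measure the spread between single flies. That spread was larger in females, with a biological coefficient of variation of 0.412 when females were fitted alone and 0.223 when males were.

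In females, the median change from 2 h to 8 h was positive for genes of the cell cycle and of the female germline. It was negative for those of muscle and cuticle. The median changes of these lists were smaller in males. In one edgeR fit of both sexes, 3 of 29 cell cycle and 4 of 38 germline genes rose in females, against 4.84% of all genes. Of 24 muscle genes 18 fell in females, against 7.18% of all genes. With females fitted alone no gene of these lists passed. Males instead had lower median values for ribosome assembly and aminoacyl-tRNA synthetase genes and higher ones for glutathione S-transferases at 8 h. The median changes of these lists in females were smaller. In the fit of both sexes none of 32 ribosome assembly and 1 of 19 synthetase genes fell in males, against 0.163% of all genes. Of 33 glutathione S-transferases 6 rose in males, against 0.761%. With males fitted alone 3, 2 and 12 of these passed, where 0.839% of genes fell and 3.43% rose. At the level of single genes and with all 35 flies, 1 of 9524 genes passed an adjusted p of 0.05 for the interaction (edgeR's quasi-likelihood test, Benjamini-Hochberg adjustment), which is 0.0105% of the genes tested. At an unadjusted p under 0.05 there were 2542 genes (26.7%), of which 1563 had the higher change in females (16.4%) and 979 the lower change in females (10.3%). DESeq2 called 157 genes, 11 with the higher and 146 with the lower change in females, and limma voom called 2. The group patterns below are therefore described by counts and medians, and are read against the median interaction of all 9524 genes, which was 0.11.

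The gene that passed was CG13947 (FBgn0031277), which fell in females between 2 and 8 h. It had 0, 0.593 and 3.07 CPM (lowest, median, highest) in females at 8 h and 2.52, 12.3 and 50.3 CPM in females at 2 h. In males it had 23.2, 29.0 and 65.6 CPM at 8 h and 19.1, 36.2 and 68.5 CPM at 2 h. The females at 8 h overlapped those at 2 h only through one 2 h fly, and the male groups overlapped almost entirely. The interaction was -3.90 ± 0.64 (log2, SE), with a 95% interval of -5.21 to -2.58 and an adjusted p of 0.0152 (edgeR). The female change was -3.95 ± 0.53 and passed in the shared fit of both sexes (adjusted p 0.000246), while with females fitted alone its edgeR adjusted p was 0.0527. The male change was -0.05 ± 0.35 (adjusted p 0.988). The interaction was negative at each DMSO level, -4.89 at 0.1%, -1.86 at 0.2% and -5.20 at 0.4%. On food without DMSO it was -1.30 ± 0.81 and did not pass (edgeR adjusted p 0.268).

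**Figure D1:**
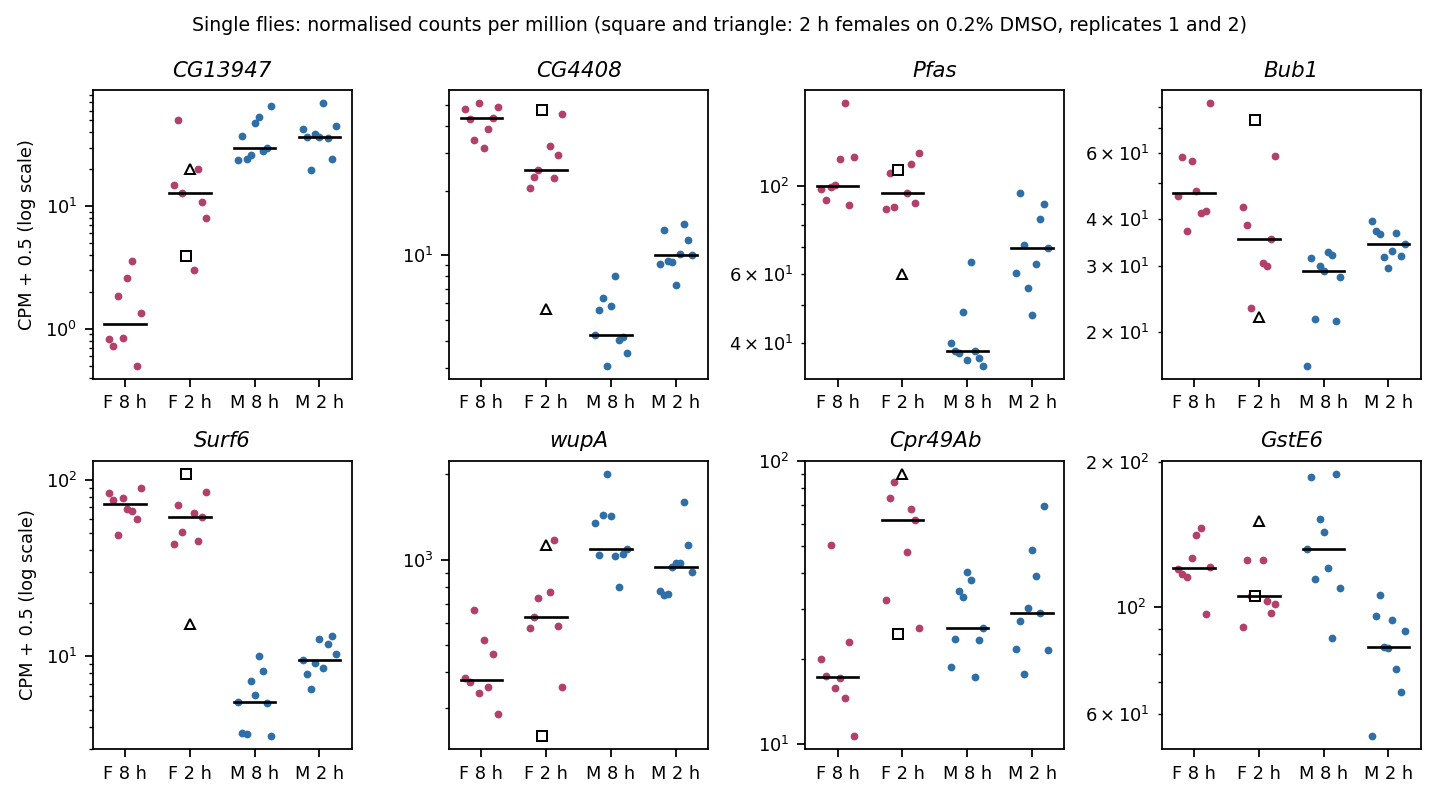
Each point is 1 fly, with CPM plus 0.5 on a log axis, in females (F) and males (M) at 8 h and 2 h on food with DMSO; bars are medians, and the open square and triangle mark 2 h females on 0.2% DMSO, replicates 1 and 2. CG13947 lay at 0 to 3.07 CPM in females at 8 h and at 2.52 to 50.3 CPM in females at 2 h, while in Pfas the shift was between the male groups.

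The 5 genes with the next smallest p on each side had adjusted p-values of 0.0588 to 0.161 and did not pass. On the negative side, CG42521 had 1.13, 4.14 and 8.74 CPM in females at 8 h and 6.51, 28.2 and 43.8 CPM in females at 2 h. In males CG42521 had 8.16, 16.2 and 19.3 CPM at 8 h and 9.19, 14.4 and 23.1 CPM at 2 h. 3 of its 8 h females lay above the lowest of its 2 h females, and its male groups overlapped throughout, with an interaction of -2.36 ± 0.44. Root, which encodes rootletin of the ciliary rootlet, had 0.227, 0.433 and 0.854 CPM in females at 8 h and 1.27, 3.88 and 6.82 CPM in females at 2 h. In males Root had 32.6, 91.5 and 159 CPM at 8 h and 89.4, 125 and 161 CPM at 2 h. Root thus separated the female groups without overlap, at levels far below those of males, and its female change of -2.65 ± 0.38 passed also with females fitted alone (edgeR adjusted p 0.0209). The other genes on this side were CG34446, the serpin Spn42De and CG7300, with interactions of -1.41, -2.27 and -1.83.

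On the positive side, 2 genes had passed for a fall in males. Pfas, an enzyme of purine synthesis, fell in males. It had 89.3, 99.5 and 162 CPM in females at 8 h and 59.4, 95.5 and 121 CPM in females at 2 h. In males Pfas had 34.5, 37.6 and 63.9 CPM at 8 h and 46.5, 69.1 and 95.5 CPM at 2 h. Only 2 of the males at 8 h reached into the range of the males at 2 h. The male change of Pfas was -0.76 ± 0.13 (edgeR adjusted p 0.00591), the female change was 0.16 ± 0.14 (adjusted p 0.418) and the interaction was 0.93 ± 0.19 (adjusted p 0.0762). CG4408 also fell in males, by 1.13 on the log2 scale (edgeR adjusted p 0.0405). It had 31.1, 42.7 and 50.3 CPM in females at 8 h and 5.13, 24.3 and 46.5 CPM in females at 2 h. In males CG4408 had 2.58, 3.77 and 7.54 CPM at 8 h and 6.78, 9.54 and 13.5 CPM at 2 h, with 1 fly of the 8 h males inside the range of the 2 h males. The gene dare rose in females in the shared fit (0.54 ± 0.14, edgeR adjusted p 0.0173). The interactions of dare, which encodes an adrenodoxin reductase needed for ecdysone synthesis, and of the splicing helicase gene Prp5 were 0.83 ± 0.20 and 1.18 ± 0.30. CG17470 had 0.34, 1.12 and 11.3 CPM in females at 8 h and 0, 0.283 and 1.55 CPM in females at 2 h, against 120, 301 and 403 CPM in males at 8 h and 275, 306 and 366 CPM in males at 2 h.

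One female decided how many genes passed. Without replicate 1 of the 2 h females on 0.2% DMSO, the same edgeR test called 3239 of 9534 genes (34.0%), 1924 with the higher change in females (20.2%) and 1315 with the lower change in females (13.8%). Without any other single fly the count was between 1 and 11, and the 11 came without replicate 1 of the 8 h females on 0.4%. The library of the female whose removal gave 3239 genes had the largest share of ribosomal RNA of the 35, at 49.0% of its gene counts. Its 29 cell cycle genes summed to 12692 CPM, the most of the 2 h females, and its 24 muscle genes to 9488 CPM, the least. Replicate 2 of the same group lay at the other end, with 726 CPM for cell cycle genes and 54793 CPM for muscle genes, and its Yp1 was at 520 CPM where the other 2 h females had 3096 to 6244 CPM. With both of these females left out 1882 genes passed (19.8%). Of these, 1172 genes had the higher change in females (12.3% of those tested) and 710 the lower change in females (7.47%). Each library was left out in turn by plan, while leaving out both of these females together was chosen after the values were seen. Replicate 1 was singled out by the count that its removal gave. Given its cell cycle and muscle sums, leaving it out by itself raises the cell cycle interaction and lowers the muscle one. The list counts without it given below are therefore not separate support. Why these 2 flies stood apart was not tested.

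**Figure D2:**
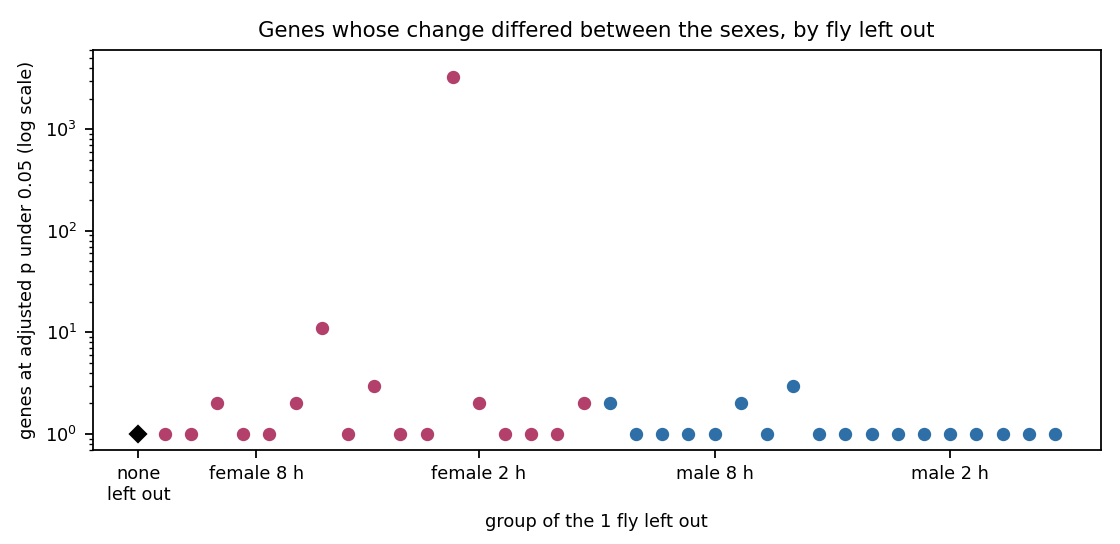
Number of genes at an adjusted p under 0.05 for the interaction (edgeR, log axis) after leaving out 1 fly, by the group of that fly; the diamond is the fit with all 35 flies. Leaving out 1 female at 2 h gave 3239 genes, and no other fly gave more than 11.

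Single females differed widely in how much of their RNA was of these kinds. Summed cell cycle transcripts were 6340, 9083 and 13634 CPM (lowest, median, highest) in females at 8 h and 726, 5713 and 12692 CPM in females at 2 h. In males they were 399, 709 and 845 CPM at 8 h and 664, 756 and 1023 CPM at 2 h. Summed muscle transcripts were 9441, 15263 and 24085 CPM in females at 8 h and 9488, 27522 and 54793 CPM in females at 2 h. Males had 20811, 27241 and 38776 CPM of muscle transcripts at 8 h and 26451, 27455 and 40302 CPM at 2 h. The 8 h females thus lay toward high cell cycle and low muscle sums, the 2 h females spread over the whole range, and the male groups overlapped. Egg shell genes, which follicle cells use late in egg formation, summed to 631, 2875 and 6903 CPM in females at 8 h and 121, 2284 and 13329 CPM in females at 2 h. The part that differences in ovary content between single females have in the interaction was not tested.

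**Figure D3:**
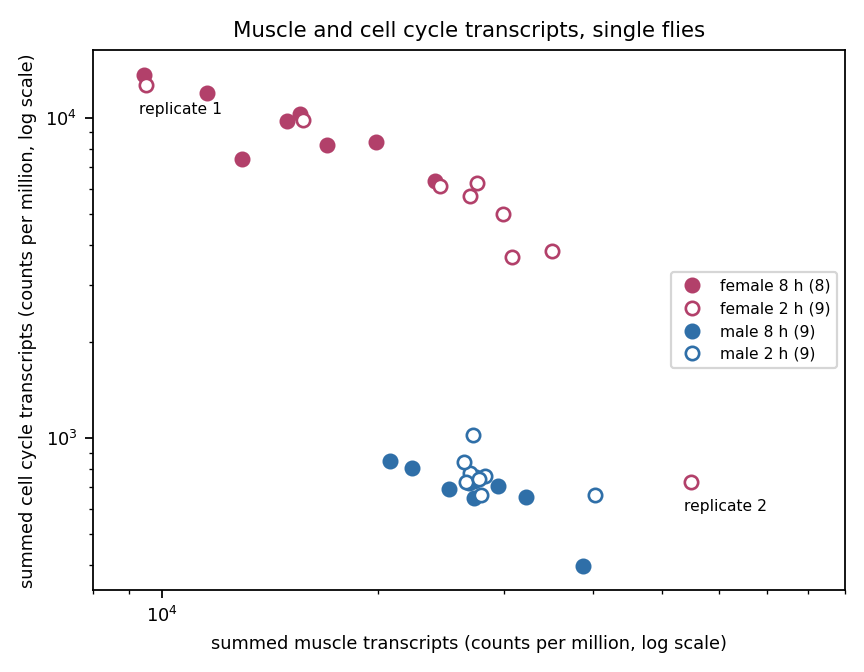
Each point is 1 fly, with its summed muscle transcripts on the horizontal axis and its summed cell cycle transcripts on the vertical axis, both as CPM without ribosomal RNA genes on log scales. The females at 8 h lay between 6340 and 13634 CPM for the cell cycle, while the females at 2 h reached from 726 CPM (replicate 2 on 0.2% DMSO) to 12692 CPM (replicate 1).

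Genes of cell division had the highest median interaction of the lists. All 29 cell cycle genes tested had a positive value, against 5408 of all 9524 genes, and their median was 0.83. The median female change was 0.76 and the median male change -0.16. None of the 29 passed with all 35 flies and 11 had an unadjusted p under 0.05 in the positive direction, where 16.4% of all genes did. Bub1, a kinase of the spindle checkpoint, had 36.6, 46.4 and 81.2 CPM in females at 8 h and 21.3, 34.9 and 73.1 CPM in females at 2 h. In males Bub1 had 15.7, 28.6 and 32.2 CPM at 8 h and 29.2, 33.7 and 39.0 CPM at 2 h. Its groups overlapped in both sexes, and the interaction was 0.78 ± 0.28 (edgeR adjusted p 0.161). The interaction of fzr, an activator of the anaphase-promoting complex that also switches cells to endocycles, was 0.80 ± 0.22 (adjusted p 0.161). Without the female named above, which had the highest cell cycle sum of the 2 h females, 21 of the 29 passed, with a median of 1.14. Without both outlying females 17 passed, with a median of 0.88. All these calls were in the positive direction, in which 20.2% and 12.3% of all genes passed in these fits. Without the one female fzr and Bub1 were at 0.77 and 0.90 (adjusted p 0.00837 for each).

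The 28 genes of the female germline that were tested had a median interaction of 0.61, and 25 of them were positive. Their median change was 0.59 in females and -0.08 in males. With all 35 flies 2 of the 28 had an unadjusted p under 0.05 in the positive direction, a smaller share than the 16.4% of all genes. Without the one female 9 passed in the positive and 1 in the negative direction, where 20.2% and 13.8% of all genes did. Without both outlying females 6 passed, all positive, where 12.3% of all genes did in that direction. On food without DMSO 1 of 27 passed in the positive direction, where 4.29% of all genes did. The gene gcl, whose maternal RNA directs the formation of primordial germ cells, rose in females in the shared fit (log2 change 0.82 ± 0.27, edgeR adjusted p 0.0436). It had 83.3, 117 and 227 CPM in females at 8 h and 18.1, 70.9 and 153 CPM in females at 2 h, against 10.8, 13.4 and 17.6 CPM in males at 8 h and 10.8, 14.4 and 17.9 CPM in males at 2 h. The female groups overlapped in part and the male groups throughout. The interaction of gcl was 0.90 ± 0.39 (adjusted p 0.167). That of bru1, a repressor of translation in the oocyte that is also used in muscle, was 0.77 ± 0.35 (adjusted p 0.174). The median of bru1 was 283 CPM at 8 h and 217 CPM at 2 h in females. In males it was higher, at 392 and 440 CPM, so bru1 is not a measure of the female germline alone. The yolk protein gene Yp1 had 2032, 4873 and 9179 CPM in females at 8 h and 520, 4547 and 6244 CPM in females at 2 h, and was too low in males to be tested for the interaction.

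In a second set on the positive side the larger median change was in males. Ribosome biogenesis genes make and process ribosomal RNA in the nucleolus. Of 32 tested, 29 had a positive interaction, with a median of 0.48. At an unadjusted p under 0.05 there were 12, all positive, where 16.4% of all genes were in that direction. The median change of the 32 was 0.11 in females and -0.46 in males. None of the 32 passed in males in the shared fit. With males fitted alone 3 fell, where 0.839% of genes did. Surf6, a nucleolar protein gene, had 48.1, 72.3 and 89.1 CPM in females at 8 h and 14.8, 61.2 and 108 CPM in females at 2 h. In males Surf6 had 3.03, 5.02 and 9.53 CPM at 8 h and 6.06, 9.08 and 12.5 CPM at 2 h. The male groups overlapped in part and the female groups throughout. The male change of Surf6 was -0.85 ± 0.28 in the shared fit (edgeR adjusted p 0.164) and -0.81 with males fitted alone (adjusted p 0.0218), and the interaction was 1.10 ± 0.36 (adjusted p 0.161). RIOK1, a kinase of the maturing small ribosomal subunit, had an interaction of 1.08 ± 0.34 (adjusted p 0.161). Without the one female 12 of the 32 passed and without both outlying females 7, all positive. In these fits 20.2% and 12.3% of all genes passed in that direction.

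Aminoacyl-tRNA synthetases, which charge transfer RNAs with amino acids, had a positive interaction in 18 of 19 genes, with a median of 0.29. The median change was 0.06 in females and -0.22 in males. ValRS fell in males, where it had 22.4, 28.7 and 34.5 CPM at 8 h and 32.9, 36.8 and 49.2 CPM at 2 h. In females ValRS had 71.4, 84.5 and 104 CPM at 8 h and 68.2, 84.4 and 108 CPM at 2 h. The 2 highest of the 8 h males overlapped the 2 h males, and the female groups had the same median within 1 CPM. The male change was -0.44 ± 0.11 (edgeR adjusted p 0.0463) and the interaction 0.45 ± 0.15 (adjusted p 0.161). LysRS had an interaction of 0.64 ± 0.22 (adjusted p 0.161). Of the 20 genes listed for the response to amino acid stress, 14 had a positive interaction, against 5408 of all 9524 genes. The median was 0.31. At an unadjusted p under 0.05, 5 were on the positive and 2 on the negative side, where 16.4% and 10.3% of all genes were. Without the one female 2 passed on each side, where 20.2% and 13.8% of all genes did. Without both outlying females 1 passed on each side, where 12.3% and 7.47% did. With all 4 foods 8 and 2 passed, where 23.3% and 10.1% did. Shmt, which makes one-carbon units from serine, had a male change of -0.66 ± 0.18 (edgeR adjusted p 0.0769, and 0.0155 with males fitted alone) and an interaction of 0.87 ± 0.26. The folate enzyme gene pug rose in females in the shared fit (0.75 ± 0.24, adjusted p 0.0392), with an interaction of 1.14 ± 0.33. All 32 proteasome subunit genes tested were positive, with a median of 0.36. At an unadjusted p under 0.05 there were 13, where 16.4% of all genes were in that direction. Without the one female 14 passed, without both outlying females 3, with all 4 foods 22 and on food without DMSO 1, all positive. In these fits, in the same order, 20.2%, 12.3%, 23.3% and 4.29% of all genes passed in the positive direction. Here the larger median change was in females, at 0.25 against -0.09 in males. The interactions of Rpn3, a subunit of the regulatory lid, and Prosalpha5, of the catalytic core, were 0.51 ± 0.18 and 0.44 ± 0.17 (edgeR adjusted p 0.161 for each).

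At the negative end, structural genes of the body had lower values at 8 h in females. All 24 muscle genes had a negative interaction, with a median of -0.84, and 20 had an unadjusted p under 0.05, against 10.3% of all genes in that direction. Their median change was -0.84 in females and -0.04 in males. In the shared fit 18 of the 24 fell in females and none passed in males. Among all 12878 genes, 1547 passed in females (12%), of which 623 rose (4.84%) and 924 fell (7.18%), and 119 passed in males (0.924%), of which 98 rose (0.761%) and 21 fell (0.163%). With RLE scaling 485 rose and 1141 fell in females, and without ribosomal RNA genes 389 rose and 1367 fell in females while 87 rose and 37 fell in males. At an unadjusted p under 0.05, 19.7% of genes were higher and 15.7% lower at 8 h in females, and 6.39% were higher and 4.92% lower at 8 h in males. With females fitted alone none of the 24 passed. The troponin I gene wupA had 285, 376 and 665 CPM in females at 8 h and 238, 630 and 1176 CPM in females at 2 h. In males wupA had 799, 1091 and 2013 CPM at 8 h and 752, 943 and 1594 CPM at 2 h. The lowest of the 2 h females was replicate 1 on 0.2% DMSO, and the groups overlapped within each sex. The gene fell in females in the shared fit (-0.73 ± 0.24, edgeR adjusted p 0.0457). Its interaction was -1.08 ± 0.33 (edgeR adjusted p 0.161). The troponin C gene TpnC73F fell in females by 1.43 on the log2 scale (adjusted p 0.00268) and had an interaction of -1.23 ± 0.35 (adjusted p 0.161). Without the one female, which had the lowest muscle sum of the 2 h females, 22 of the 24 muscle genes passed, with a median of -1.05. Without both outlying females 18 passed, with a median of -0.84. All these calls were negative, a direction in which 13.8% and 7.47% of all genes passed in these fits.

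Cuticle protein genes had a negative interaction in 23 of 24 tested genes, with a median of -0.98. The median change was -0.82 in females and 0.09 in males. Cpr49Ab fell in females, with 10.2, 16.7 and 49.9 CPM at 8 h and 23.9, 61.2 and 89.6 CPM at 2 h. In males Cpr49Ab had 16.8, 25.2 and 39.9 CPM at 8 h and 17.2, 28.5 and 68.6 CPM at 2 h. One 8 h female reached well into the 2 h range. The female change was -1.53 ± 0.30 (edgeR adjusted p 0.0034, and 0.0959 with females fitted alone) and the interaction -1.29 ± 0.40 (adjusted p 0.161). Cpr65Au had an interaction of -0.96 ± 0.27. Enzymes of cuticular hydrocarbons, the waxes that limit water loss, had lower values at 8 h in both sexes, with a median change of -1.41 in females and -0.46 in males over 7 genes. Cyp4g1, which carries out the last step of hydrocarbon synthesis in oenocytes, had 398, 1191 and 3665 CPM in females at 8 h and 878, 4933 and 12704 CPM in females at 2 h. In males Cyp4g1 had 1196, 3591 and 9611 CPM at 8 h and 3967, 7077 and 11802 CPM at 2 h. The groups overlapped within each sex. Cyp4g1 fell in females (-2.31 ± 0.42, adjusted p 0.00271), did not pass in males (-0.79 ± 0.38, adjusted p 0.427) and had an interaction of -1.52 ± 0.55 (adjusted p 0.161). The elongase family gene CG9458 had an interaction of -1.03 ± 0.34.

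Genes listed for blood cells had a negative interaction in 13 of 14 cases, with a median of -0.68. In the shared fit 8 fell in females, where 7.18% of all genes did. Several of the listed genes encode extracellular matrix proteins that fat body cells also make. Pxn, the peroxidasin of basement membranes, had 11.3, 32.5 and 50.5 CPM in females at 8 h and 21.7, 83.7 and 153 CPM in females at 2 h, against 29.3, 42.8 and 73.5 CPM in males at 8 h and 37.7, 51.6 and 59.8 CPM in males at 2 h. The groups overlapped within each sex. The interaction of Pxn was -1.28 ± 0.38, and that of the integrin ligand gene Tig was -1.52 ± 0.50 (edgeR adjusted p 0.161 for each). Nuclear genes of oxidative phosphorylation had small but uniform differences, with a negative interaction in 63 of 64 and a median of -0.28. Their median change was -0.13 in females and 0.15 in males. COX8, of cytochrome c oxidase, and ND-B17.2, of complex I, had interactions of -0.45 ± 0.16 and -0.43 ± 0.16 (adjusted p 0.161 for each). 12 of the 64 had an unadjusted p under 0.05 in the negative direction, where 10.3% of all genes did. Without the one female 44 of the 64 passed, but 10 did without both outlying females, 4 with all 4 foods and 2 on food without DMSO, all negative. All 14 vacuolar ATPase genes, which acidify organelles and gut lumen, were negative as well, with a median of -0.29, and 3 were at an unadjusted p under 0.05. Without the one female 9 of the 14 passed, but 1 did without both outlying females, 3 with all 4 foods and 2 on food without DMSO. In these fits, in the same order, 13.8%, 7.47%, 10.1% and 6.71% of all genes passed in the negative direction. The oxidative phosphorylation counts with all 4 foods and on food without DMSO were thus below the share of all genes. Transcripts of neurons (median -0.43, 20 of 23 negative) and of the light response of the eye (median -0.40, 18 of 20 negative) lay on the same side, with no member of either list at an unadjusted p under 0.05 in the negative direction. At 0.2% DMSO both medians were on the other side of zero, at 0.04 for neurons and 0.14 for the light response.

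**Figure D4:**
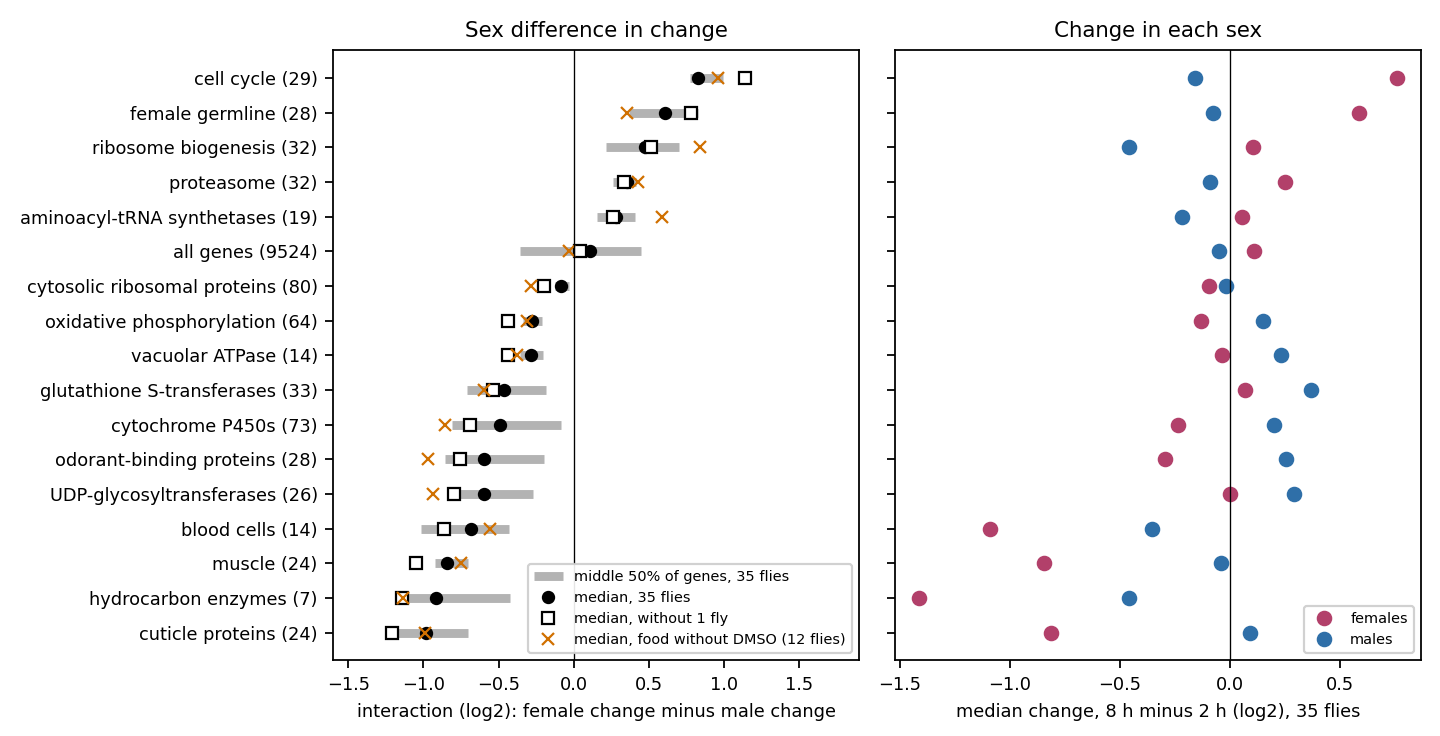
Left, the interaction of each gene list as median (filled circle) and middle 50% of its genes (grey) with 35 flies, as median without replicate 1 of the 2 h females on 0.2% DMSO (open square) and as median on food without DMSO (cross); right, the median change in each sex. Cell cycle genes had a median of 0.83 and cuticle protein genes one of -0.98, against 0.11 for all genes, and for ribosome biogenesis and glutathione S-transferases the larger change was in males.

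Detoxification genes also had a lower change in females. Glutathione S-transferases, which couple glutathione to reactive compounds, had a median change of 0.07 in females and 0.37 in males, and 26 of 33 had a negative interaction (median -0.47). In the shared fit 6 of them rose in males, where 0.761% of all genes did. With males fitted alone 12 of them rose, where 524 of 12274 genes passed (4.27%), 421 of which rose (3.43%) and 103 fell (0.839%). GstE6 rose in males, with 85.9, 131 and 188 CPM at 8 h and 53.5, 82.1 and 105 CPM at 2 h. In females GstE6 had 96.2, 120 and 145 CPM at 8 h and 90.4, 105 and 150 CPM at 2 h. All but 1 of the 8 h males lay above all 2 h males, and the female groups overlapped throughout. The male change was 0.73 ± 0.14 (edgeR adjusted p 0.0113), the female change 0.12 ± 0.14 (adjusted p 0.615) and the interaction -0.61 ± 0.20 (adjusted p 0.161). GstE2 had an interaction of -1.03 ± 0.35. UDP-glycosyltransferases, which attach sugars to hydrophobic compounds, had a median interaction of -0.59 with 21 of 26 negative. Cytochrome P450 genes, a family of oxidising enzymes, had one of -0.49 with 56 of 73 negative. Of the 73, 17 were at an unadjusted p under 0.05 in the negative direction, where 10.3% of all genes were. Ugt50B3 had 3.10, 4.38 and 5.80 CPM in females at 8 h and 3.41, 5.64 and 8.07 CPM in females at 2 h, against 267, 310 and 415 CPM in males at 8 h and 154, 223 and 328 CPM in males at 2 h. Its interaction was -0.85 ± 0.22 and its male change 0.44 ± 0.14 (adjusted p 0.13, and 0.0321 with males fitted alone). Ugt36D1, Cyp4p3 and Cyp4e1 had interactions of -1.10 ± 0.32, -1.34 ± 0.42 and -1.06 ± 0.34. Odorant-binding proteins, secreted carriers of small hydrophobic molecules, had a median of -0.59 with 23 of 28 negative. Obp57a, used in taste hairs of the legs, had 21.7, 69.9 and 100 CPM in females at 8 h and 30.1, 131 and 178 CPM in females at 2 h, against 29.7, 35.5 and 47.5 CPM in males at 8 h and 6.75, 27.4 and 36.6 CPM in males at 2 h. Most 2 h females lay above the median of the 8 h females, and both pairs of groups overlapped. Its female change was -0.96 ± 0.27 and its male change 0.60 ± 0.26, with an interaction of -1.57 ± 0.38 (edgeR adjusted p 0.152). The interaction of Obp99d was -1.56 ± 0.37 (adjusted p 0.15).

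Genes listed as gut and brain peptides, most of them hormones and neuropeptides, had a median interaction of -0.43 with 16 of 17 negative, and a median change of -0.28 in females and 0.17 in males. 1 of the 17 was at an unadjusted p under 0.05 in the negative direction, a smaller share than the 10.3% of all genes. The 18 genes listed for the gut had a median interaction of -0.33, with 4 at an unadjusted p under 0.05 in the negative direction, and a median change of -0.06 in females and 0.17 in males. The 3 larval serum protein genes tested had a median interaction of -0.89, with 2 negative, and on food without DMSO their median was 1.43. Genes of carbohydrate digestion, chiefly maltases of the midgut, had higher values at 8 h in both sexes, with a median change of 0.86 in females and 1.03 in males and a median interaction of -0.30 over 17 genes. Mal-A6 had 215, 733 and 1186 CPM in females at 8 h and 85.2, 289 and 517 CPM in females at 2 h. In males Mal-A6 had 731, 1092 and 1650 CPM at 8 h and 43.2, 372 and 1120 CPM at 2 h. The groups overlapped within each sex. Mal-A6 rose in females in the shared fit (1.25 ± 0.42, edgeR adjusted p 0.0493), its male change was 1.59 ± 0.41 (adjusted p 0.0575, and 0.0193 with males fitted alone), and the interaction of -0.35 ± 0.58 had a 95% interval of -1.53 to 0.84. Cytosolic ribosomal proteins had a median interaction of -0.09 over 80 genes, mitochondrial ribosomal proteins one of 0.14 over 70, fat synthesis genes one of -0.04 over 23 and glycolysis genes one of 0.02 over 16. Over all genes the sign of the change was the same in females and males for 48.8%. Of the 1469 tested genes that passed in females, 1073 had the same sign in males, and of the 70 that passed in males, 60 had the same sign in females.

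**Figure D5:**
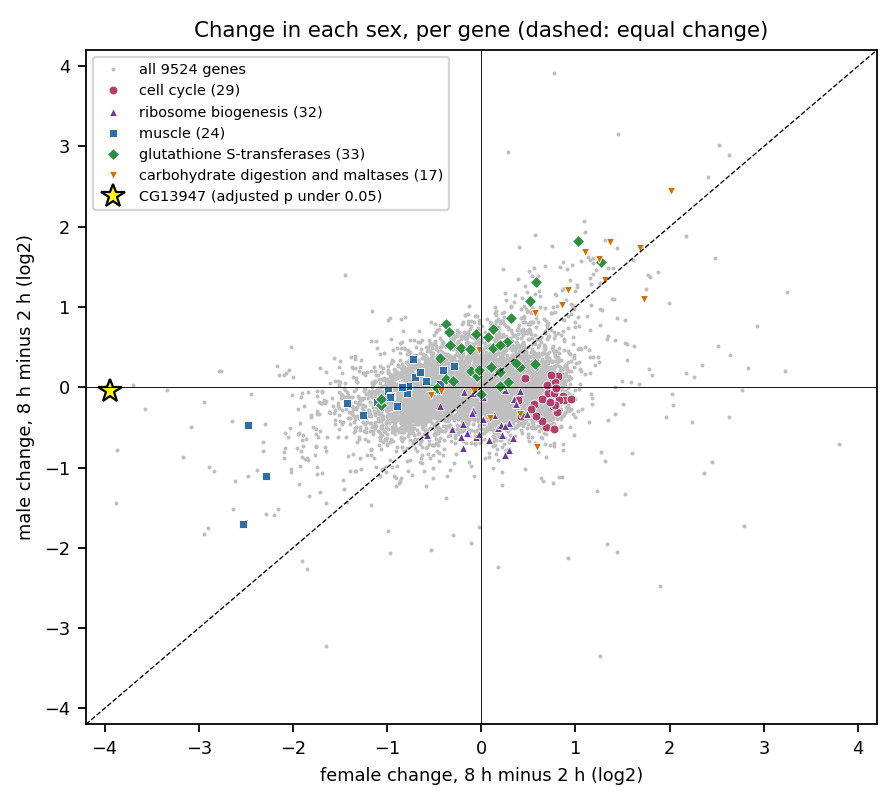
Each point is 1 of 9524 genes, with the 8 h minus 2 h change in females on the horizontal axis and in males on the vertical axis (log2); 3 genes lie outside the range shown. Most muscle genes lie left of zero and cell cycle genes right of it with little male change, most ribosome biogenesis genes lie below zero on the male axis, most carbohydrate digestion genes lie toward the upper right near the dashed line of equal change, and the star marks CG13947.

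Some genes are used in one sex only and give no interaction. Of 46 accessory gland genes, 9 rose in males in the shared fit, where 0.761% of all genes did, and none fell. With males fitted alone 28 of them rose, where 3.43% of all genes did, and none fell. Sfp96F, a seminal fluid protein gene, rose in males, with 5.10, 11.9 and 66.0 CPM at 8 h and 0.757, 1.77 and 4.39 CPM at 2 h, and was at 0 in all these females. The male groups did not overlap (change 3.06 ± 0.29, edgeR adjusted p 8.24e-05). Acp63F rose in males as well, with 396, 534 and 569 CPM at 8 h and 173, 246 and 453 CPM at 2 h (change 0.95 ± 0.16, adjusted p 0.00673). In females Acp63F was at 0 in every 8 h fly and at most 0.377 CPM at 2 h. Testis genes summed to 12059, 24218 and 29933 CPM in males at 8 h and 21194, 23887 and 28394 CPM in males at 2 h, and none of 38 passed in the shared fit, while 3 rose with males fitted alone. lncRNA:roX1 had 312, 425 and 643 CPM in males at 8 h and 335, 386 and 440 CPM in males at 2 h, and did not exceed 2.16 CPM in the females. Unlike the genes above it reached the level required in each sex and was tested. Its interaction was -0.69 ± 0.39 (edgeR adjusted p 0.229, and 0.0404 without the one 2 h female on 0.2% DMSO).

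Another 4 genes were followed whatever their result. The triglyceride lipase gene bmm rose in females in the shared fit (0.58 ± 0.16, edgeR adjusted p 0.0249), with 67.6, 75.6 and 104 CPM at 8 h and 40.1, 48.6 and 68.7 CPM at 2 h. In males bmm had 48.2, 57.5 and 83.1 CPM at 8 h and 35.1, 66.4 and 105 CPM at 2 h, and the interaction was 0.62 ± 0.23 (adjusted p 0.161). The clock genes per and tim fell in females in the shared fit, by 0.79 and 0.59 on the log2 scale (adjusted p 0.0224 and 0.0354). In males their changes were -0.43 ± 0.20 and -0.18 ± 0.17, which did not pass, and the interactions were -0.35 ± 0.29 and -0.41 ± 0.25 (adjusted p 0.382 and 0.251). The amylase-related gene Amyrel had 0, 0.445 and 15.4 CPM in females at 8 h and 0, 0.627 and 7.78 CPM in females at 2 h, and was below the level required for the interaction.

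The calls within females rested on the spread of both sexes in one fit. With females fitted alone, 7 of 9854 genes passed (0.0710%), of which 3 rose (0.0304%) and 4 fell (0.0406%), and of the genes named here Root was the one that passed. The call was lost for every other gene given above as having passed in females in the shared fit.

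Flies on food without DMSO gave a second set of 12 animals, 3 in each group, that shared no library with the 35. There the males at 2 h and 8 h came from different sequencing runs, so run and time cannot be told apart in males. The interaction passed for 1018 genes (11.0%), 397 of 9256 genes with the higher change in females (4.29%) and 621 with the lower (6.71%), but between 114 genes (without replicate 1 of the 8 h males) and 2012 genes (without replicate 2 of the 2 h females) passed when 1 of the 12 flies was left out. The median interaction was 0.96 for cell cycle genes, 0.84 for ribosome biogenesis, 0.43 for the proteasome, -0.75 for muscle, -0.99 for cuticle proteins, -0.97 for odorant-binding proteins and -0.59 for glutathione S-transferases, against -0.03 for all genes. Unlike with DMSO, muscle sums on this food were lower at 8 h in males too. In males they were 32173, 39677 and 44257 CPM (lowest, median, highest) at 2 h and 17937, 19552 and 21832 CPM at 8 h. In females they were 31787, 37161 and 40612 CPM at 2 h and 10420, 12492 and 13837 CPM at 8 h. Median cuticle protein sums were 882 and 584 CPM in males and 931 and 341 CPM in females at 2 and 8 h. Of the 3239 genes that passed without the one female, 3204 were measured on food without DMSO, and 3090 of those (96.4%) had the same sign there, against 84.3% of all genes. On this food 679 of them passed with the same sign. The named genes with the smallest p on this food, Pfas, wupA, Cpr65Au, Pxn and Cyp4p3, passed at 1.39, -1.09, -1.50, -1.82 and -2.32 (edgeR adjusted p 0.0147 to 0.0196). The interactions of fzr, bmm, CG17470 and Tig had the opposite sign on this food. With the 3 foods and the food without DMSO in one fit of all 4, 3180 of 9515 genes passed (33.4%), of which 2219 had the higher change in females (23.3%) and 961 the lower (10.1%).

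Among the foods with DMSO the medians of cell cycle, muscle, cuticle and ribosome biogenesis genes each had one sign, while those of neurons, the light response and carbohydrate digestion did not. At 0.1, 0.2 and 0.4% they were 1.10, 0.45 and 0.70 for cell cycle genes, -0.93, -1.12 and -0.65 for muscle and -0.64, -1.31 and -0.83 for cuticle proteins. For ribosome biogenesis they were 0.33, 0.35 and 0.69, for neurons -0.38, 0.04 and -0.9999, for the light response -0.45, 0.14 and -0.83, and for carbohydrate digestion 0.44, -0.04 and -0.70. No gene passed at a single DMSO level in edgeR, where 1871, 170 and 689 genes had an unadjusted p under 0.05 at 0.1, 0.2 and 0.4%.

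Between 2 and 4 h none of 9565 genes passed for the interaction (0%), and 72 had an unadjusted p under 0.05 (0.753%, with 0.282% higher and 0.470% lower) in edgeR, 107 in DESeq2 and 74 in limma voom, which called none either. The median interaction from 2 to 4 h was -0.13 for cell cycle genes, -0.06 for muscle and -0.01 for ribosome biogenesis. This interval shares its 2 h flies with the main one. Over the 4 times on food with DMSO, wupA had medians of 416, 629, 558 and 373 CPM at 0, 2, 4 and 8 h in females and 839, 878, 818 and 1032 CPM in males. Pfas had 129, 96.5, 99.8 and 99.9 CPM in females and 58.7, 64.8, 57.3 and 35.7 CPM in males. CG13947 had 2.97, 12.7, 8.59 and 0.592 CPM in females and 37.0, 34.96, 40.5 and 28.6 CPM in males. In females the 8 h medians of wupA and CG13947 were thus nearer to the fasted 0 h medians than to those at 2 h, and in males Pfas was lowest at 8 h. These profiles leave out 1 male library whose labels give both 0 h and 8 h.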

How the data were processed

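The authors deposited whole-number counts per gene from polyA-selected, strand-specific single-end libraries of single flies; the strand setting of the counting was not stated. The submitters' processing notes name CASAVA 1.8.2, bcl2fastq 1.8, TopHat2 2.1.0, STAR 2.4.2a and HTSeq 0.6.1p1, with no role given. No genome build was named in the notes or labels, so no coordinates were used. Per the labels' protocols, RNA of other insects was pooled into the libraries before sequencing, and the effect of reads shared between species was not tested. Each file lists 17370 genes, 96 spike-in rows and 5 summary rows, and the summary rows held 8.73% to 19.5% of all counts in the 35 libraries. Spike-in and summary rows were left out, and a reference table gave symbols for 17155 gene IDs.

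Counts were fitted in edgeR 4.0.16 (R 4.3.3) with filterByExpr, TMM normalisation and glmQLFit over 12 groups of sex, time and DMSO level, and contrasts averaged the 3 levels equally. The interaction was tested in genes with a mean of at least 1 CPM in each sex. Benjamini-Hochberg adjustment ran over all genes tested, with a threshold of 0.05. CPM in the text are TMM-normalised unless said otherwise, and list sums are plain CPM without the 116 ribosomal RNA genes. The test was run first on simulated data. The changes in females and males came from the same fit, with alternatives in which each sex was fitted alone. Alternatives were DESeq2 1.42.0, limma 3.58.1 voom with weights per sex, other scaling and filters, other sets of flies, a replicate block, and leaving out each library in turn. The number of counts limits the precision of low genes. In 47.2% of genes the 95% interval of the interaction lay within 1 log2 unit on either side of 0.

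The comparison, the gene lists and the tests were chosen with earlier results of these data known. The genes named are the 1 that passed, the 5 with the smallest p on each side, 6 named whatever their result and, chosen after the values were seen, the 2 genes with the smallest p in each of 15 lists, the maltase gene with the clearest change in both sexes and the 2 accessory gland genes with the smallest p in males. List members were not tested as a set.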

Additional observations from a re-analysis of the deposited data

Results flagged for a closer look

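CG13947 was singled out because its change differed between the sexes, with an interaction of -3.90 (log2) that passed the edgeR test given above. The library labelled as a female at 8 h on 0.4% DMSO, replicate 3, which no comparison uses, was singled out by its lncRNA:roX1 at 134 CPM before normalisation.

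In 185 groups of 8 or 9 flies of the named genes, a single fly stood far from the rest of its group 19 times. Distances were taken on the log2 scale (CPM plus 0.5). Chance alone gives about 1 in 20 groups if groups are independent. The same flies recur from gene to gene here, so the 19 cannot be set against that rate. Among females at 2 h on 0.2% DMSO, replicate 2 was low in CG4408 (5.13 CPM, others from 20.1 CPM), Pfas (59.4 CPM, others from 87.0 CPM), Yp1 (520 CPM, others from 3096 CPM) and Surf6 (14.8 CPM, others from 42.9 CPM), and high in Cyp4p3 (20.2 CPM, others up to 6.79 CPM). Replicate 1 of that group was low in CG7300 (13.9 CPM, others from 48.6 CPM), Cyp4g1 (878 CPM, others from 3726 CPM), Ugt36D1 (7.75 CPM, others from 19.6 CPM) and Obp57a (30.1 CPM, others from 84.4 CPM). Among females at 8 h, replicate 3 on 0.2% DMSO was high in Pfas (162 CPM, others up to 118 CPM) and bmm (104 CPM, others up to 79.9 CPM), and replicate 3 on 0.1% was high in COX8 (175 CPM, others up to 138 CPM).

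Among males at 8 h, replicate 1 on 0.1% DMSO was low in CG17470 (120 CPM, others from 257 CPM), replicate 1 on 0.4% was low in Cpr65Au (71.98 CPM, others from 112 CPM) and replicate 2 on 0.2% was low in GstE2 (3.54 CPM, others from 6.65 CPM). Among males at 2 h, replicate 1 on 0.1% DMSO was low in CG7300 (6.17 CPM, others from 17.1 CPM), Cpr65Au (24.3 CPM, others from 69.7 CPM), GstE2 (1.51 CPM, others from 3.81 CPM) and Obp57a (6.75 CPM, others from 19.3 CPM).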

How the results depend on the processing

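For the interaction, the 1 gene that passed with TMM and edgeR became 157 genes with DESeq2 (11 higher and 146 lower in females), 2 with limma voom, 4 with DMSO levels merged, 8 with all libraries of the series in the fit, 0 with the female library carrying male transcripts kept, and 0 at each single DMSO level. It was 1 under another scaling (RLE), without ribosomal RNA genes, under both other filters and with the replicate block. The choices made after seeing the data gave 1882 without both 2 h females on 0.2% DMSO, 3180 with all 4 foods, and, without replicate 1 of those females, 3056 in limma voom, 3542 in DESeq2 and 3082 without ribosomal RNA genes. Food without DMSO gave 1018. Leaving out 1 fly gave 1 to 3239, and 11 was the highest for any fly other than that female (without replicate 1 of the 8 h females on 0.4% DMSO). On food without DMSO, leaving out 1 fly gave 114 (replicate 1 of the 8 h males) to 2012 (replicate 2 of the 2 h females), and 9 of the 12 flies moved the count by over 1.5 times.

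In females 1547 genes passed, 2332 with DESeq2, 227 with limma voom, 285 with the library with male transcripts kept, 713 with the replicate block, 7 with females fitted alone, 37, 0 and 0 at 0.1, 0.2 and 0.4% DMSO, 3464 on food without DMSO, and 99 (replicate 2 of the 8 h females on 0.4% DMSO) to 5194 (replicate 1 of the 2 h females on 0.2%) when 1 fly was left out, with 12 of 35 flies moving the count by over 1.5 times. In males 119 passed, 387 with DESeq2, 787 with limma voom, 20 with that library kept, 524 with males fitted alone, 71, 0 and 0 at the 3 levels, 466 on food without DMSO, and 25 (replicate 2 of the 8 h males on 0.4%) to 216 (that same 2 h female) when 1 fly was left out, with 14 flies moving it by over 1.5 times. From 2 to 4 h none of the settings tried called a gene. Leaving out single flies and food without DMSO were not tried for that interval.

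CG13947 passed in each of the 35 fits without 1 fly (adjusted p 0.00389 to 0.0466), and did not with the male-transcript library kept, at single DMSO levels or without DMSO. Signs turned for CG17470, bmm, fzr and Tig on food without DMSO (-0.64, -0.20, -0.29 and 0.26), for lncRNA:roX1 and Ugt50B3 with that library kept (1.55 and 0.50), and for Mal-A6 at 0.1 and 0.2% DMSO (0.63 and 0.17). The median of all genes moved from 0.11 to 0.01 with RLE and -0.01 without ribosomal RNA genes, and the medians of the lists at both ends kept their signs. The causes were not tested. Replicate numbers did not pair flies: deviations of flies with the same number correlated at -0.07 on average in females (40 pairs) and -0.02 in males (45 pairs).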
